A study of Mus musculus with 2 samples.

Results

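The lysosome is the acidic compartment in which cells break down material taken up from outside and worn-out parts of their own. Liver sinusoidal endothelial cells, which line the capillaries of the liver, and Kupffer cells, the macrophages that sit in those capillaries, are both known as scavengers that clear material from blood by endocytosis. The MiT factors (Tfeb, Tfe3, Tfec and Mitf) are related basic helix-loop-helix leucine zipper transcription factors, and Tfeb and Tfe3 are known to bind E-box motifs at lysosomal and autophagy genes. The set described here holds 39 genes of the 32285 in the deposited tables. It was given as a list of symbols, made of 35 lysosomal genes and the 4 MiT factors, and all 39 symbols were found. Levels were read in sinusoidal endothelium and in Kupffer cells, in each of 2 single-cell libraries.

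The libraries came from livers of mice at postnatal day 15. Endothelial and hematopoietic cells were isolated by flow sorting, and droplet sequencing counted each transcript molecule by a unique molecular identifier (UMI). The control library came from mice called control endothelial cell mice in the labels, and the other from mice called c-Maf KO endothelial cell mice, in which the gene for the transcription factor c-Maf (Maf) is named as knocked out. The labels and processing notes at hand do not state strain, alleles or the promoter that drives the deletion, nor whether control mice carry any allele or driver of the knockout. Each library pooled 1 male and 1 female. With 1 library per group, differences between mice cannot be told apart from differences between genotypes, and no test between genotypes was possible.

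Cell types followed the cluster names of the deposited annotation, which has 23 clusters and no key to its abbreviations. By their names, K was read as Kupffer cells, and S, S2, KOS_1, KOS_2 with KOS_3 as sinusoidal endothelium. Sinusoidal clusters held 2803 control and 2448 c-Maf KO cells, with 15166763 and 17996272 UMIs. K held 766 and 193 cells, with 3183752 and 919852 UMIs, so its levels in the c-Maf KO library are the least precise of those compared. Median depth per cell was 4874 and 7128 UMIs in sinusoidal cells, and 2257.5 and 1989 UMIs in K. The 2 libraries shared 21 barcodes. All 11 of 11 Kupffer markers, such as Clec4f and Vsig4, were detected in K. Their summed level there was 26890 control and 21471 c-Maf KO CPM (UMIs of a gene scaled to the same total in every sum). All 9 of 9 sinusoidal markers, such as Stab2 and Lyve1, were detected in sinusoidal cells of either library, at a summed 13502 CPM in control and 4047 CPM in c-Maf KO. That drop in the type's own markers ran alongside every sinusoidal comparison below, and its part in the results was not tested. In c-Maf KO, KOS_2 also held megakaryocyte markers at 910 CPM, against 55.1 CPM in KOS_1. The 21 control cells of KOS_2 held megakaryocyte markers at 12466 CPM and leukocyte markers at 9431 CPM, above sinusoidal markers at 2975 CPM. The sinusoidal reading of these 21 cells is therefore unsure.

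Maf itself stood at 2152 CPM in control and 193 CPM in c-Maf KO sinusoidal cells, a log2 ratio of -3.48 (95% interval -3.53 to -3.43). The c-Maf KO sinusoidal cells were of mixed Maf level. Maf was at 9.32 CPM in KOS_1, with 1356 cells, and at 1732 CPM in the 336 cells that shared clusters S and S2 with the control cells. In K, Maf stood at 797 CPM in control and 529 CPM in c-Maf KO. All intervals given here are 95% counting intervals. They cover the counting of molecules and not the spread between mice.

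Sinusoidal cells of the c-Maf KO library had lower transcript levels of most lysosomal genes. A gene was called lower or higher where the ratio of its shares of UMIs was at least 1.5-fold, the interval of that ratio excluded equality and at least 50 UMIs were present. Of the 38 members with enough UMIs, 29 were called lower, 0 higher and 9 neither, beside 15.4% of all 11519 genes called lower and 13.4% called higher. The 29 include Ctss, Ctsc and Ctsh, which rested on few molecules and are set beside Kupffer markers below. The median log2 ratio was -0.92 over the members and -0.08 over all genes tested. Summed over the 35 lysosomal genes, control sinusoidal cells gave 1.15% of their UMIs to this set and c-Maf KO cells 0.458%. In K the summed share was 2.21% in control and 1.96% in c-Maf KO.

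**Figure D1:**
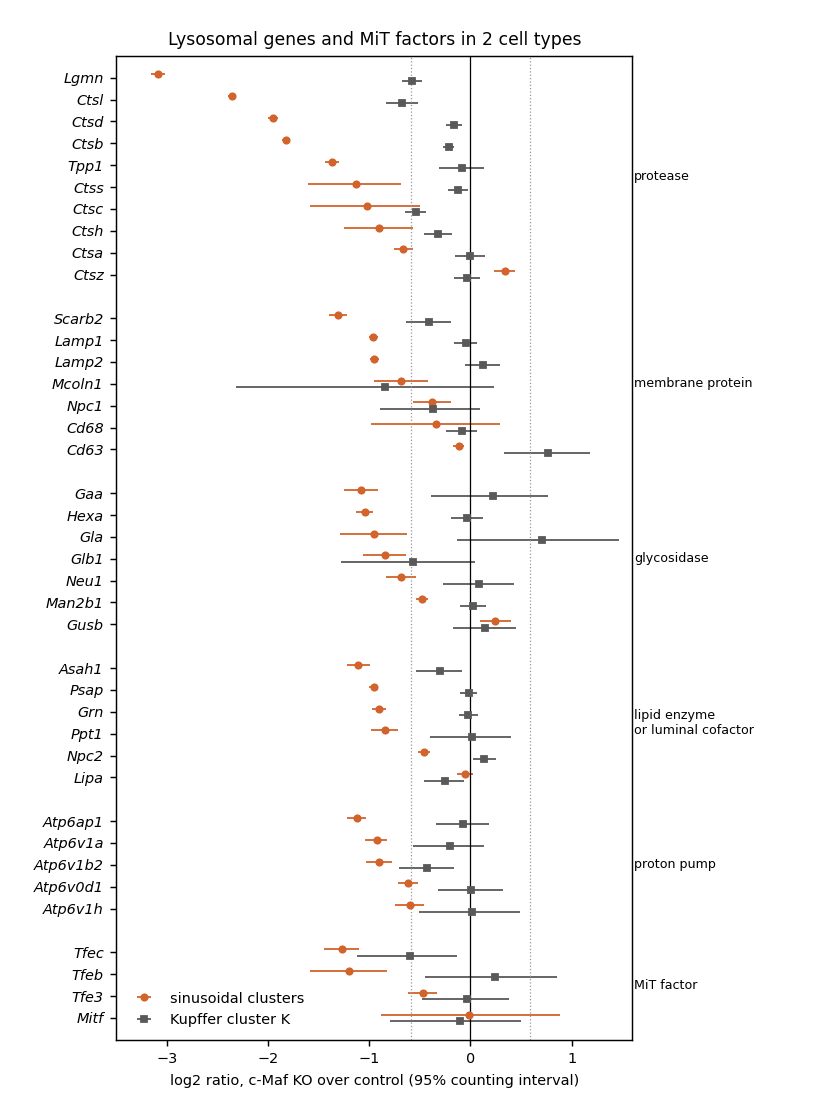
Ratio, on the log2 scale, of the c-Maf KO to the control level for each of the 39 genes, grouped by role, in sinusoidal clusters (circles) and in Kupffer cluster K (squares). Bars are 95% counting intervals, the solid line marks equality and the dotted lines mark 1.5-fold. Circles lie left of the lower dotted line for 29 genes, and squares cluster around equality, with the proteases Lgmn and Ctsl farthest left among circles at -3.09 and -2.36.

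The proteases held the lowest ratios of the set. Of 10 proteases, 9 were called lower in sinusoidal cells, and their summed level was 6284 CPM in control and 1556 CPM in c-Maf KO. Lgmn encodes legumain, an asparaginyl endopeptidase that also trims cathepsins to their mature forms, and lies at chr12:102394084-102439813 on the minus strand (mm10). Lgmn stood at 935 CPM (920 to 951) in control and 110 CPM (105 to 115) in c-Maf KO, a log2 ratio of -3.09 (-3.16 to -3.02), or 8.52-fold lower. The 2 intervals are far apart, and no other member had so low a ratio. Ctsl, the cysteine protease cathepsin L (chr13:64359337-64370890, minus strand), stood at 2380 CPM in control and 464 CPM in c-Maf KO, a log2 ratio of -2.36 (-2.39 to -2.32). Ctsd, the aspartic protease cathepsin D (chr7:142375911-142388038, minus strand), stood at 936 and 242 CPM, a log2 ratio of -1.95 (-2.00 to -1.90). Ctsl and Ctsd each overlap a predicted gene on the same strand (Gm49230 and Gm49369), and the sources at hand do not say how shared reads were assigned. Ctsb, cathepsin B (chr14:63122462-63145923, plus strand), stood at 1469 and 415 CPM, a log2 ratio of -1.82 (-1.86 to -1.79). Tpp1, the aminopeptidase tripeptidyl peptidase 1 (chr7:105744811-105752235, minus strand), stood at 318 and 123 CPM, a log2 ratio of -1.37 (-1.44 to -1.30). Ctsa, which encodes the serine carboxypeptidase that stabilises lysosomal neuraminidase, was called lower at -0.67.

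Ctss, Ctsc and Ctsh, cathepsins known for their use in leukocytes, were called lower in sinusoidal cells from few molecules. Ctss stood at 7.71 and 3.5 CPM, Ctsc at 5.34 and 2.61 CPM, and Ctsh at 12.4 and 6.61 CPM. A single c-Maf KO cell held 12 of the 47 Ctsc UMIs. These sinusoidal levels were 0.571%, 0.394% and 1.84% of the levels of the same genes in K in control, and 0.282%, 0.281% and 1.23% in c-Maf KO. The 11 Kupffer markers, read in control sinusoidal cells in the same way, stood at a median of 0.485% of their K level (0.358% to 3.87%), and in c-Maf KO sinusoidal cells at 0.11% (0.0763% to 0.328%). Ctss and Ctsc lie within the range of these markers in both libraries. The top of each range was C1qb, with C1qa next at 1.45% in control and 0.163% in c-Maf KO. In c-Maf KO, Ctss and Ctsc lie above every marker but C1qb. Their sinusoidal levels are not read as expression by the endothelium, and their source was not tested. Ctsh lies above every marker but C1qb in control and above the whole range in c-Maf KO. Of the 188 control Ctsh UMIs, 23 lay in the 21 cells of KOS_2, and of the 47 c-Maf KO Ctsc UMIs, 19 lay in KOS_2. In PV, an endothelial cluster outside the sinusoidal set, Ctsh stood at 223 CPM in control and 141 CPM in c-Maf KO. The source of Ctsh in sinusoidal cells was not tested. The summed Kupffer markers in sinusoidal cells were at 326 CPM in control and 35.1 CPM in c-Maf KO. The exception among proteases in direction was Ctsz, the carboxypeptidase cathepsin Z, at 78.3 CPM in control and 98.9 CPM in c-Maf KO, a log2 ratio of 0.34 (0.23 to 0.44). It was the highest ratio of the set in sinusoidal cells and did not reach the call.

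Membrane proteins were split. Scarb2, the membrane receptor that carries glucocerebrosidase to lysosomes (chr5:92441314-92506833, minus strand), stood at 202 CPM in control and 81.5 CPM in c-Maf KO, a log2 ratio of -1.31 (-1.40 to -1.22). The major membrane glycoproteins Lamp1, at 811 and 417 CPM, and Lamp2, at 780 and 404 CPM, were called lower at -0.96 and -0.95. Mcoln1, a calcium-conducting channel of the lysosomal membrane, was called lower at -0.68. The other 3 of the 7 were not called. Cd63, a tetraspanin of late endosomes and secretory vesicles, stood at 309 and 285 CPM, a log2 ratio of -0.12 (-0.17 to -0.06). Npc1, which passes cholesterol out of the lysosome, stood at 33.7 and 25.9 CPM (-0.38, -0.56 to -0.20). Cd68, a macrophage glycoprotein of the Lamp family, stood at 2.97 and 2.33 CPM (-0.35, -0.99 to 0.29). Its sinusoidal level was 0.584% of its K level in control, within the range of the Kupffer markers, and 0.489% in c-Maf KO, above it.

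Of the 7 glycosidases, which cleave sugars from glycogen, glycolipids and glycoproteins, 5 were called lower. Gaa, the acid alpha-glucosidase that degrades glycogen, was at -1.08, the hexosaminidase subunit Hexa at -1.05, the alpha-galactosidase Gla at -0.95, the beta-galactosidase Glb1 at -0.85 and the sialidase Neu1 at -0.68. The alpha-mannosidase Man2b1 had a ratio of -0.48 and was not called. Gusb, the beta-glucuronidase, stood at 39.9 CPM in control and 47.2 CPM in c-Maf KO, a log2 ratio of 0.24 (0.09 to 0.40), and was not called.

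Among the lipid enzymes and luminal cofactors, 4 of 6 were called lower. The acid ceramidase Asah1 was at -1.11, Psap (prosaposin, the precursor of the saposins that help lipid breakdown) at -0.96, Grn (progranulin) at -0.91 and the thioesterase Ppt1 at -0.85. Npc2, which hands cholesterol to Npc1, had a ratio of -0.46 and was not called. Lipa, the acid lipase that frees cholesterol and fatty acids, stood at 157 CPM in control and 151 CPM in c-Maf KO, a log2 ratio of -0.06 (-0.14 to 0.02). Its interval includes equality.

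All 5 proton pump genes, which encode subunits of the vacuolar ATPase that acidifies lysosomes or its accessory protein, were called lower. Their log2 ratios ran from -1.13 for the accessory protein Atp6ap1 to -0.60 for Atp6v1h, with Atp6v1a at -0.93, Atp6v1b2 at -0.91 and Atp6v0d1 at -0.62. Atp6v1h lies just past the threshold of 1.5-fold, at 1.52-fold lower, and Atp6v0d1 at 1.53-fold lower.

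Of the MiT factors, Tfec and Tfeb were called lower in sinusoidal cells. Tfec (chr6:16833373-16898441, minus strand) stood at 53.7 CPM (50.05 to 57.5) in control and 22.2 CPM (20.1 to 24.5) in c-Maf KO, a log2 ratio of -1.27 (-1.45 to -1.10). Tfeb (chr17:47737030-47792419, plus strand) rested on few molecules, 173 UMIs and 89 UMIs, and stood at 11.4 CPM (9.77 to 13.2) and 4.95 CPM (3.97 to 6.09), a log2 ratio of -1.20 (-1.59 to -0.83). Tfe3 (chrX:7762560-7775202, plus strand) stood at 57.2 and 41.3 CPM, a log2 ratio of -0.47 (-0.61 to -0.33), and did not reach the call. Mitf (chr6:97807052-98021349, plus strand) had 22 and 26 UMIs, 1.45 CPM in either library, which were too few for the call.

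The 4 factors had different patterns over the clusters of at least 50 cells. Tfec in control was at 69.7 CPM in K, 58.9 in S2 and 54.9 in the cluster C-EC (endothelial by its markers, with 89 control cells). It was at 36.3 in S, 35.3 in H (66 cells) and 24.4 in D (56 cells). Leukocytes_1 followed at 17.7 and PV, another endothelial cluster outside the sinusoidal set, at 16.1. The intervals of K (60.9 to 79.5), S2 (54.6 to 63.5) and C-EC (38.2 to 76.3) overlap, and S (30.2 to 43.3) lies below those of K and S2. In the c-Maf KO library Tfec was at 63.8 CPM in S2 and 40.3 CPM in S, inside or close to the control values of the same clusters, and at 21.1 in KOS_3, 19.3 in KOS_1, 17.1 in C-EC and 9.88 in KOS_2. Tfec was therefore low in the clusters with low Maf and not in S and S2 of the same library. Tfeb was highest in the B lineage cluster B2, at 75.4 CPM in control and 86.8 CPM in c-Maf KO. It was at 41.1 and 63.9 CPM in Leukocytes_1 and at 26.1 and 30.4 CPM in K. Mitf was highest in K, at 32.0 CPM in control and 29.4 CPM in c-Maf KO, followed in control by Leukocytes_1 at 11.4 CPM. Tfe3 was at 67.2 and 65.2 CPM in K and at 63.0 and 63.8 CPM in S2. In the clusters with low Maf, Tfe3 did not move as a block: it was at 66.9 CPM (50.3 to 87.3) in KOS_3, 38.98 CPM (35.8 to 42.4) in KOS_1 and 21.4 CPM in KOS_2.

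**Figure D2:**
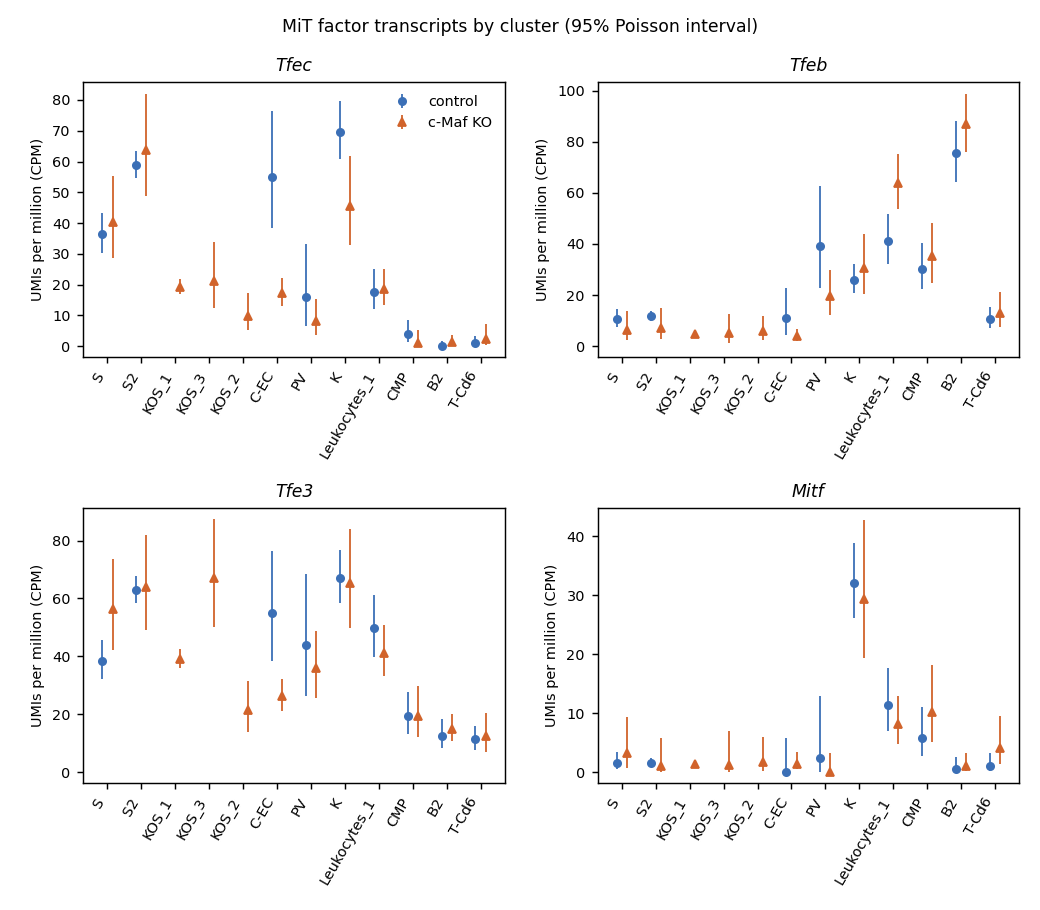
Levels of the 4 MiT factors in CPM in 12 clusters, for control (circles) and c-Maf KO (triangles), with 95% Poisson intervals; clusters with under 50 cells in a library are not drawn. Tfec is high in S, S2, C-EC and K of control and low in KOS_1, KOS_2, KOS_3 and C-EC of c-Maf KO, Tfeb peaks in B2, and Mitf peaks in K.

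Kupffer cells showed few changes in the same genes. Of 39 members tested, 1 was called higher, 2 lower and 36 neither, beside 4.45% of all 7756 genes called higher and 6.61% called lower. The median log2 ratio was -0.07 over the members and -0.04 over all genes. Ctsl stood at 695 CPM (666 to 725) in control and 435 CPM (393 to 480) in c-Maf KO, a log2 ratio of -0.68 (-0.83 to -0.52), and was called lower. Tfec stood at 69.7 CPM and 45.7 CPM (-0.60, -1.12 to -0.13), just past the threshold at 1.51-fold lower. Cd63 stood at 45.5 CPM (38.4 to 53.6) and 77.2 CPM (60.3 to 97.4), a log2 ratio of 0.77 (0.33 to 1.18), and was called higher. Mcoln1 and Gla had ratios as large, at -0.84 and 0.71, but rested on 46 and 7 UMIs and on 45 and 21 UMIs, and their intervals include equality. Tfeb had a ratio of 0.24 (-0.45 to 0.86). Lgmn, the lowest member in sinusoidal cells, stood at 1671 and 1121 CPM in K (-0.58, -0.67 to -0.48), just outside the call at 1.49-fold lower. The highly counted Ctsb and Ctsd were at 3993 and 3435 CPM and at 2154 and 1924 CPM.

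K also held endothelial transcripts. The 9 sinusoidal markers summed to 1956 CPM in control K and 732 CPM in c-Maf KO K, and stood at a median of 15.3% and 20.3% of their sinusoidal levels. Cd63 in K was at 14.7% of its sinusoidal level in control and 27.0% in c-Maf KO. Both lay within the ranges of those markers, 12.6% to 16.3% and 8.25% to 35.8%. A further 8 endothelial markers, such as Pecam1 and Kdr, stood at a median of 13.5% (12.7% to 51.7%) and 10.6% (7.91% to 42.7%). In c-Maf KO, Cd63 lay above all of these but Cdh5. The Kupffer level of Cd63 is not read as expression by Kupffer cells, and its source was not tested. Without the cells that held 2 or more UMIs of endothelial markers, 308 control and 97 c-Maf KO cells remained. In them 0 of 27 members tested were called, and Ctsl was at 413 CPM in control and 440 CPM in c-Maf KO. Tfec and Cd63 had too few UMIs in these cells for a call, so the part of endothelial transcripts in their Kupffer calls was not tested. The 6 leukocyte markers summed to 8904 CPM in control K and 13826 CPM in c-Maf KO K, and the part of this in the results was not tested. The Kupffer ratios also differed between cells of the pooled mice. For the summed 35 genes the log2 ratio was 0.20 in 102 control and 50 c-Maf KO cells of female type, which showed Xist but no transcript from 4 genes of the Y chromosome. It was -0.45 in 140 and 26 cells of male type, which showed the reverse. In sinusoidal cells the same ratios were -1.31 for the female and -1.58 for the male type. These rested on 694 control and 1398 c-Maf KO cells of female type, and on 827 and 255 of male type.

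The difference between the 2 cell types was computed directly, as the sinusoidal minus the Kupffer log2 ratio. Of 38 members tested, 27 were lower in sinusoidal cells by at least 1.5-fold with an interval that excluded 0, 0 were higher and 11 were neither, beside 14.3% of all 7417 genes lower and 9.38% higher. Lgmn differed most, by -2.51 (-2.63 to -2.40), followed by Ctsd at -1.79, Ctsl at -1.68, Gla at -1.66 (-2.47 to -0.85) and Ctsb at -1.61. Tfeb differed by -1.44 (-2.16 to -0.73) and Tfec by -0.67 (-1.18 to -0.17). Tfe3, at -0.44, was not counted as different. Ctsc, Glb1, Atp6v1b2 and Mcoln1 were called lower in sinusoidal cells, but their difference from K was not past the threshold. Cd63 and Npc2 were among the 27 without a call in sinusoidal cells. Ctss and Ctsh, also among the 27, rested on few sinusoidal molecules.

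Kupffer and sinusoidal cells of the control library differed in many of these genes. The clusters were made from expression, so this is a description. In control, 22 of 39 members were called higher in K, 4 lower and 13 neither, beside 17.1% of all 10961 genes higher and 33.5% lower. The 4 members higher in sinusoidal cells were Ctsl (2380 against 695 CPM), Lamp2 (780 against 355 CPM), Cd63 (309 against 45.5 CPM) and Gaa (52.0 against 33.0 CPM). In K, Ctsc was 252-fold, Ctss 174-fold, Cd68 169-fold and Ctsh 54.2-fold higher, and Mitf 21.7-fold higher. The 5 proton pump genes were close between the cell types, with 1 called, Atp6v1b2, at 2.23-fold higher in K. In the c-Maf KO library, 32 members were called higher in K, 1 lower and 6 neither, beside 15.3% and 25.5% of 11000 genes. Of the 4 members above K in control sinusoidal cells, Cd63 was called again. Ctsl was at 464 CPM in sinusoidal cells and 435 CPM in K, and Lamp2 at 404 and 387 CPM, while Gaa was at 24.6 and 38.0 CPM and called higher in K. Lgmn, 1.79-fold higher in K in control, was 10.2-fold higher in K in c-Maf KO.

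**Figure D3:**
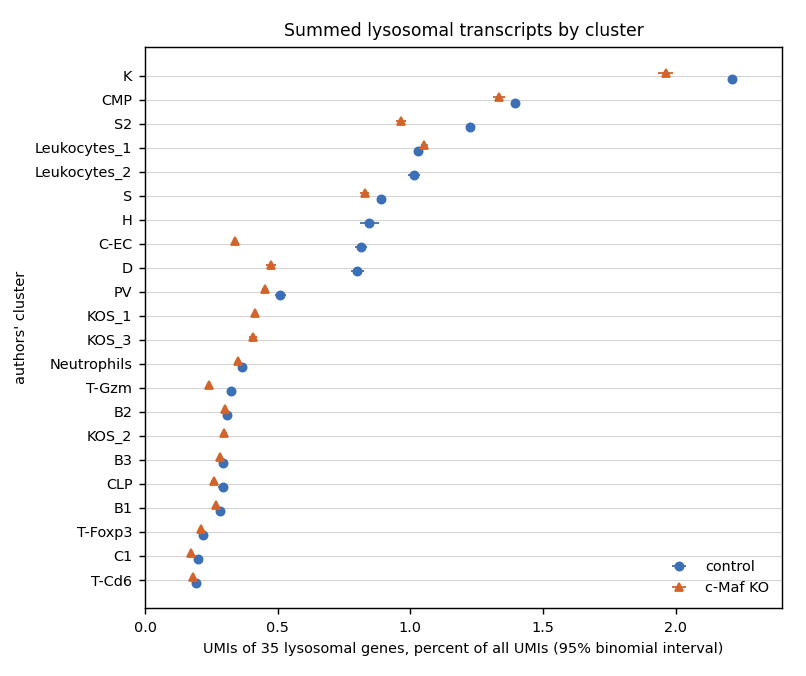
Share of all UMIs that came from the 35 lysosomal genes, in percent, for each cluster with at least 50 cells in a library, in control (circles) and c-Maf KO (triangles), with 95% binomial intervals. K has the highest share in both libraries, at 2.21% and 1.96%, and the widest gaps between libraries among shared clusters, on the log2 scale, are those of C-EC and D.

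Within the sinusoidal clusters, the low levels belonged to the clusters with low Maf. The summed share of the 35 genes was 0.415% in KOS_1, 0.406% in KOS_3 and 0.299% in KOS_2. In S2 it was 1.22% in control and 0.966% in c-Maf KO, and in S 0.888% and 0.827%. C-EC, whose Maf level was 1382 CPM in control and 39.9 CPM in c-Maf KO, had shares of 0.813% and 0.338%, a log2 ratio of -1.27 (-1.31 to -1.22). PV, whose Maf level was 228 and 39.4 CPM, had shares of 0.510% and 0.452%, a log2 ratio of -0.17 (-0.25 to -0.10). The 9 sinusoidal markers summed to 1488 CPM in control PV and 1340 CPM in c-Maf KO PV. The part of sinusoidal transcripts in the Maf level of PV was not tested. The 11 hematopoietic clusters other than K ran from -0.44 to 0.03. Among these 11, Lgmn was lower in c-Maf KO in all but B3 (77.4 and 84.1 CPM). Ctsl was lower in all but Leukocytes_1 (90.1 and 98.4 CPM). In T-Gzm, Lgmn stood at 75.2 CPM in control and 16.3 CPM in c-Maf KO, and Ctsl at 182 and 18.3 CPM. PV had Lgmn at 159 and 58.2 CPM and Ctsl at 474 and 306 CPM. The source of these differences outside the sinusoidal clusters was not tested. With each cell thinned to 1000 UMIs, which left out 289 control and 181 c-Maf KO sinusoidal cells, the median cell held 12 lysosomal UMIs (quartiles 9 and 15) in control S2 and 10 in c-Maf KO S2. The medians were 8 in S of either library and 4 (quartiles 3 and 5) in KOS_1. K cells held a median of 24 in control and 21 in c-Maf KO, with 115 and 44 cells left out.

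KOS_1 of the c-Maf KO library was set against S and S2 of the control library, which leaves out the c-Maf KO cells that shared the control clusters. In this description 29 of 38 members were called lower and 0 higher, beside 17.3% and 14.3% of 11296 genes, with a median of -1.01. The 29 were the same genes as over all sinusoidal cells. Lgmn stood at 938 CPM in control S and S2 and 49.5 CPM in KOS_1 (-4.24, -4.36 to -4.13), Ctsl at 2386 and 370 CPM (-2.69) and Ctsd at 938 and 191 CPM (-2.29). Between the c-Maf KO and control cells of S and S2 themselves, 336 and 2779 cells, 6 of 38 members were called lower and 0 higher, 32 were not called, beside 3.75% and 3.68% of 10419 genes, and the median ratio was -0.18. The 6 were Ctsl (2386 and 1335 CPM, -0.84), Ctsb (1473 and 977 CPM, -0.59), Gla, Glb1, Ctss and Ctsc, of which the last 2 rested on few UMIs. Lgmn stood at 938 and 627 CPM in the same comparison and was not called. S2 gave 11696757 of the 15112190 UMIs in control and 971774 of 1914997 in c-Maf KO, so the sums mix S and S2 in unlike parts. By cluster, Ctsb stood at 1155 and 878 CPM in S and at 1565 and 1073 CPM in S2. Ctsl stood at 1885 and 1260 CPM in S and at 2532 and 1409 CPM in S2. Lgmn stood at 714 and 534 CPM in S and at 1003 and 717 CPM in S2. The part of the mix in the 6 calls was not tested. Typed c-Maf KO cells of S and S2 were 247 of female and 0 of male type, against 688 and 827 in control. The 6 calls therefore also compare unlike parts of the pooled mice. The Kupffer markers summed to 326 CPM in control and 149 CPM in c-Maf KO cells of S and S2.

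**Figure D4:**
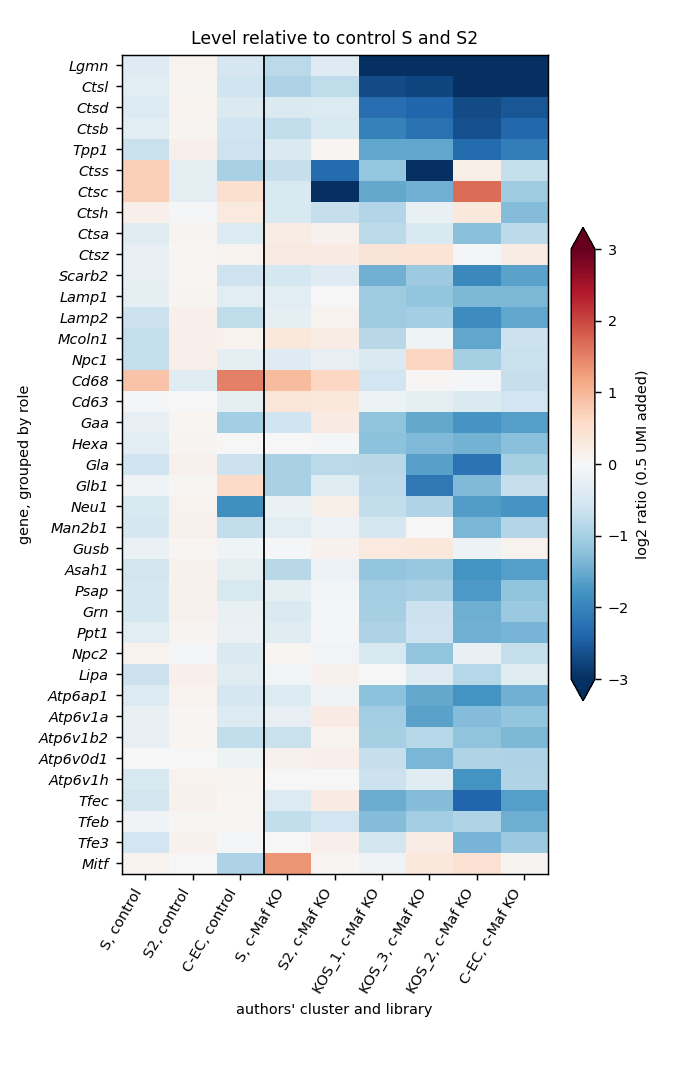
Log2 ratio of each gene's level in a cluster over its level in control S and S2 together, for endothelial clusters of control (left of the line) and c-Maf KO (right of the line), with 0.5 UMI added and the colour scale ending at 3 in either direction. KOS_1, KOS_2, KOS_3 and C-EC of c-Maf KO are blue for most genes, while S and S2 of c-Maf KO are pale; Ctsc, Ctss, Cd68 and Mitf rest on few UMIs.

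The same contrast held inside the c-Maf KO library, with no control cells. KOS_1 cells had 24 of 36 members called lower than S and S2 cells and 0 higher, beside 13.1% lower and 10.4% higher of 10502 genes, with a median of -0.77. S and S2 of this library held 247 female-type and 0 male-type cells, against 688 and 827 in control, so the comparison was repeated in female-type cells alone, 920 against 247. There 23 of 35 members were called lower and 0 higher, beside 13.1% and 9.86% of 10071 genes. In female-type cells Lgmn stood at 644 CPM in S and S2 and 49.1 CPM in KOS_1 (-3.71, -3.87 to -3.56), Ctsl at 1355 and 366 CPM (-1.89) and Ctsd at 711 and 194 CPM (-1.87). Tfec stood at 53.7 and 19.8 CPM (-1.44, -1.80 to -1.07), and Tfe3 at 63.5 and 40.1 CPM (-0.67, -0.97 to -0.34). Lipa, Ctsz and Gusb again were not called, at -0.06, 0.15 and 0.25. The clusters were drawn from expression that includes these genes, so the contrast is a description of the clusters.

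A wider list of 128 lysosomal, sorting, autophagy and MiT-regulating genes, none of them members, was read in the same way. In sinusoidal cells 50 of 117 tested were called lower and 2 higher, 65 were not called, and the median ratio was -0.55. The shares over all genes tested, given above, were 15.4% lower and 13.4% higher. Proton pump genes were called lower in 8 of 11, other hydrolases in 18 of 34, membrane and transport genes in 10 of 21, regulators of the MiT factors in 6 of 17, sorting genes in 4 of 16 and autophagy genes in 4 of 14. Among the lowest were Ctns, the cystine exporter (23.3 CPM in control and 9.11 CPM in c-Maf KO, -1.35), and Fnip1 and Flcn. The last 2 encode partners in the folliculin complex, which is known to hold Tfe3 and Tfeb in the cytoplasm, and stood at 68.8 and 27.4 CPM (-1.32) and at 54.5 and 21.9 CPM (-1.31). The 2 called higher were Ctsk, the collagen-degrading protease cathepsin K, at 5.01 CPM in control and 30.4 CPM in c-Maf KO (2.59, 2.25 to 2.97), and the protease inhibitor Serpinb6b, at 17.9 and 34.0 CPM (0.92). In K, 5 of 110 genes of the wider list were called lower and 2 higher, beside 6.61% and 4.45% of all genes tested there. Flcn and Fnip1 stood there at 27.0 and 33.7 CPM and at 50.6 and 56.5 CPM, and neither was called.

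Promoter letters of the members were searched because MiT factors are known to bind E-boxes and Maf proteins Maf recognition elements. RefSeq promoters (GRCm38.p6, 250 bases before to 50 after the start) were read for 33 members, with 41 promoters. None was used for Atp6v1h, Atp6v1b2, Ctsb, Npc1, Asah1 and Ctsh. The letters TCACGTGA, which read the same on either strand, were in promoters of 6 of the 33, Ctsd, Ctsa, Mcoln1, Gla, Atp6v0d1 and Atp6v1a, beside 1.12% of all 27025 genes. The core CACGTG, which lies inside TCACGTGA, was in 11 of the 33, the 6 just named with Ctsl, Lgmn, Lamp1, Gaa and Glb1, beside 8.09% of genes. All 11 were called lower in sinusoidal cells, as were 24 of the 33, beside 15.4% of all 11519 genes tested. The share called lower among all genes with CACGTG was not computed, so no tie between these letters and the calls is drawn. The longer CLEAR form, with a further base at either end, was in 0 of the 33, beside 0.37% of genes. Of the Maf recognition elements, the T-MARE was in 0 of the 33 and 0.0037% of genes, and looser forms with a free middle stretch were in 0 of the 33, beside 0.355% of genes for the longer stretch and 0.433% for the shorter. Both strands were searched. Forms this rare over all genes would seldom fall among any 33, so the counts of 0 for the CLEAR form and the Maf elements carry no information. No sequence outside this window was searched. A match is a description of letters in this window and not of binding. The 6 members with the 8-base form are shown with 1 site each, 30 bases on the gene's strand, with the matched letters in capitals, since these are the members whose promoters hold the E-box form searched for the MiT factors.
Ctsd (chr7:142387908-142387937, minus strand): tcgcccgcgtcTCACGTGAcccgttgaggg
Ctsa (chr2:164833749-164833778, plus strand): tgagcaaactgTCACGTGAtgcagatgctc
Mcoln1 (chr8:3500462-3500491, plus strand): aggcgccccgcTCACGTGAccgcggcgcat
Gla (chrX:134601182-134601211, minus strand): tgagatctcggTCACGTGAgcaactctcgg
Atp6v0d1 (chr8:105566050-105566079, minus strand): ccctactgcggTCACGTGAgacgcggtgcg
Atp6v1a (chr16:44139373-44139402, minus strand): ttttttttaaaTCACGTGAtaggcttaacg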

How the data were processed

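Droplet single-cell RNA sequencing gave 2 libraries, 1 control and 1 c-Maf KO, grouped by the sample labels. The authors deposited whole UMI counts per gene and barcode, with 9038 control and 9058 c-Maf KO barcodes and 54143192 and 60281713 UMIs, and an annotation of 7669 and 8166 cells that gives the cluster names. The submitters' processing notes name the build mm10, FastQC 0.11.3, Cell Ranger 4.0.0 and Seurat 3.2.3. Alignment and counting settings were not stated there. The annotation's percent of mitochondrially encoded UMIs in each cell, as deposited by the authors, entered no comparison.

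Within each library and cluster, the UMIs of all cells were added up and divided by their total UMIs (CPM). Levels carry exact Poisson, shares exact binomial and ratios exact conditional binomial intervals at 95%. The log2 ratio used sums with 0.5 UMI added. Differences of log2 ratios used the summed counting variances. With 1 library per group no p-value was computed. Python 3.11.15, numpy 2.4.6, scipy 1.17.1, pandas 2.3.3 and scanpy 1.11.5 were used, and the code was tested on simulated data. Doublet calls from Scrublet, 123 in control (1.6% of cells) and 170 in c-Maf KO (2.08%), were kept in the values given and left out in an alternative.

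The members, the wider list, the markers and the rules were chosen with earlier results of these data known. Values per library were given for the MiT factors, for the 6 highest and 6 lowest sinusoidal ratios and for the 3 Kupffer ratios farthest each way, among members with at least 50 UMIs. From the wider list, up to 4 called genes per direction were to be named, of which 1 is not reported here. Flcn and Fnip1 in K, and other members with values, were added after values were seen. Of 130 symbols of the wider list, 2 were not used. Coordinates are from GENCODE M21 on mm10. In all, 12 other settings were tried, with 5 comparisons added after seeing the data, among them those within the c-Maf KO library.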

Additional observations from a re-analysis of the deposited data

Results flagged for a closer look

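Cd63 and Npc2 had log2 ratios of opposite sign in the 2 cell types. For Cd63 the log2 ratio, c-Maf KO relative to control, was -0.12 in sinusoidal cells and 0.77 in Kupffer cells. For Npc2 it was -0.46 in sinusoidal cells and 0.14 in Kupffer cells. Neither gene was called in sinusoidal cells, and Npc2 was not called in Kupffer cells. The level of Cd63 in Kupffer cells lay within the range of sinusoidal markers there, and in c-Maf KO above all other endothelial markers but Cdh5. It is not read as the Kupffer cells' own expression, and its source was not tested. With 1 library per group, the difference was not tested over animals, and its counting intervals are -1.30 to -0.47 for Cd63 and -0.73 to -0.47 for Npc2. In male-type Kupffer cells Npc2 was at -0.16, and in female-type Kupffer cells at 0.57.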

How the results depend on the processing

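No paired analysis was possible because each group is 1 library, and for the same reason no library could be left out in turn. Of the 29 members called lower in sinusoidal cells, all kept a ratio below 0 under each of the 12 other settings except male-type cells alone, where 28 did and Glb1 turned to 0.057. A 2-fold threshold left 14 sinusoidal calls, 0 Kupffer calls, 2 in S and S2 and 12 differences between the cell types. Thinning to 1000 UMIs left 21 sinusoidal calls, 19 of them among the 29, and gave 1 Kupffer call (Atp6v1b2, not among the 3), 2 in S and S2 (1 of them higher) and 14 differences. Centring on the median of all genes, a shift of 0.08, left 26 sinusoidal calls and took Tfec from the Kupffer calls. The Kupffer calls, 3 in all, numbered 0 without cells holding endothelial transcripts, where Ctsl turned to 0.10, 6 in female-type cells, where Tfec turned to 0.059, 7 in male-type cells and 5 without the richest cell of each gene. The mean of each cell's CPM gave 4 (Gaa higher, Npc1, Mcoln1 and Tfec lower), without Ctsl and Cd63. In male-type cells 13 members differed between the cell types, 1 of them higher in sinusoidal cells, and Cd63 in K was at -3.83, from 0 UMIs in 26 c-Maf KO cells, which is no measure of size. No male-type value exists for S and S2, which held 0 such c-Maf KO cells. The causes of these shifts were not tested, save that a stricter threshold or fewer UMIs allow fewer calls. Added after seeing the data, KOS_1 gave 31 lower calls against control S2 alone, and 21 lower and 2 higher against control S alone. KOS_3 against control S and S2 gave 24 lower and 1 higher. Depth limits Mitf, Cd68, Ctsc and Ctss in sinusoidal cells and most members in the 193 Kupffer cells of the c-Maf KO library.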

Other observations

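Outside the sinusoidal, C-EC and Kupffer clusters, the summed share of the 35 lysosomal genes was farthest from equality in D and T-Gzm. D, a cluster with 56 control and 72 c-Maf KO cells, gave 0.800% and 0.475% of its UMIs to the set, a log2 ratio of -0.75 (-0.83 to -0.68). Its 9 sinusoidal markers summed to 8150 CPM in control and 3552 CPM in c-Maf KO, beside B lineage markers at 3992 and 4855 CPM. T-Gzm gave 0.325% and 0.240%, a log2 ratio of -0.44 (-0.49 to -0.38), and its sinusoidal markers summed to 985 and 106 CPM. The part of these markers in either ratio was not tested. CMP had the highest shares of the set among hematopoietic clusters after K, at 1.40% in control and 1.33% in c-Maf KO. The log2 ratio of these 2 shares was -0.07 (-0.10 to -0.04). Leukocytes_1 followed at 1.03% and 1.05%. Maf in CMP stood at 111 CPM in control and 2.77 CPM in c-Maf KO, and the 9 sinusoidal markers there summed to 760 and 160 CPM. The part of sinusoidal transcripts in the Maf level of CMP was not tested.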
